A study of Mus musculus with 13 samples.

Results

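Semaglutide with a ketone ester was compared with semaglutide alone in the gastrocnemius, a hindlimb muscle, of male C57BL/6N mice with diet-induced obesity, across all genes measured by RNA sequencing. The comparison holds 8 of the 13 mice sequenced. These were 3 mice labelled Semaglutide+ketone ester (mice 19, 21 and 22) and 5 labelled Semaglutide+placebo (mice 13 to 17), while 5 labelled Vehicle+placebo (mice 1 to 5) gave the background. Mice of all groups entered the study at 7 weeks of age, had a 1-week acclimatization and 15 to 17 weeks of a diet with 60 kcal% fat, and were switched to chow before 3 weeks of treatment. Semaglutide was injected at 30 nM/kg per day, and the ketone ester, a diester of (R)-1,3-butanediol and octanoic acid, was given at 0.114 g/mL in the drinking water. Mice given the ketone ester without semaglutide were not analysed here, so that an effect of the ester by itself cannot be told apart from its effect on top of semaglutide. The sources used here do not give the time of day at which muscles were taken.

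Semaglutide activates the receptor for glucagon-like peptide 1 and lowers food intake. An ester of butanediol and octanoate is broken down to substrates from which the liver makes beta-hydroxybutyrate and acetoacetate, and muscle burns these ketone bodies in its mitochondria. Muscle that receives less food shifts towards fatty acids, slows protein synthesis and breaks down protein through the FoxO transcription factors, which act when insulin signalling through Akt is low.

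Genes with a mean of at least 10 normalized counts over the 13 mice numbered 12303 of 21868. With the ketone ester added, 1234 of them were higher and 1312 lower than under semaglutide alone at an adjusted p under 0.05, or 10.0% and 10.7% of all genes tested (limma). Of the 2546 genes, 1861 had no overlap between the 3 and the 5 mice, against 2476 (20.1%) of all genes tested. Among the called genes, 777 rose and 540 fell by at least 1.5-fold, and 76 rose and 27 fell by at least 4-fold. The median log2 fold change was 0.71 in the genes that rose and -0.54 in those that fell, and the volcano plot shows more genes far to the right than far to the left. The fit used 1 spread per gene for all 3 groups, vehicle-treated mice included. With only the 2 compared groups in the model, 591 genes were higher and 617 lower. In these bulk samples, fewer cells of a type and less RNA per cell cannot be told apart.

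**Figure D1:**
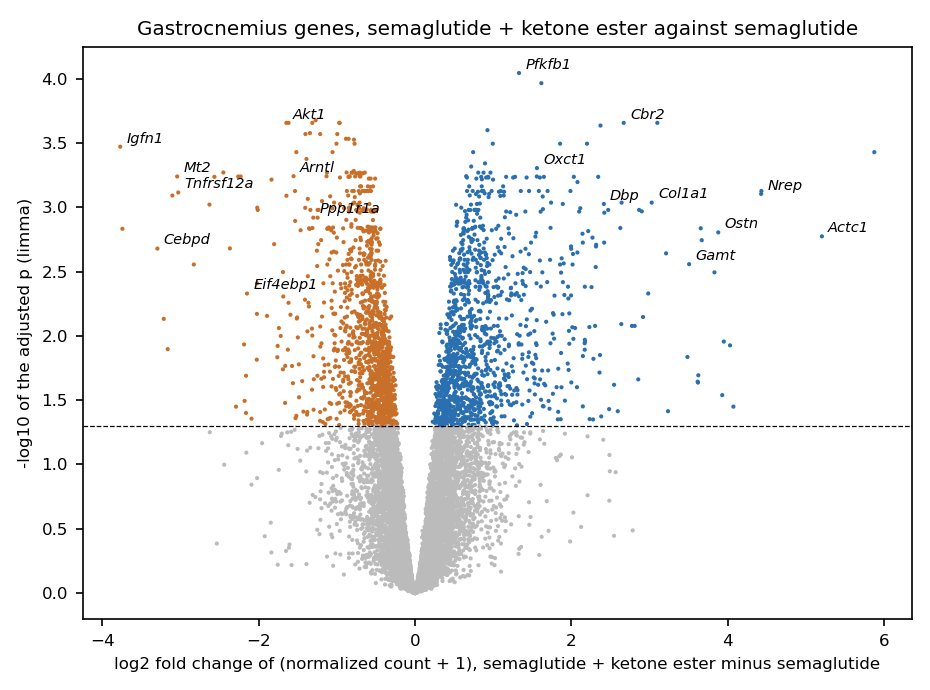
Log2 fold change of each of 12303 genes (x axis) against -log10 of its limma adjusted p (y axis), with a dashed line at an adjusted p of 0.05. Blue points (1234) were higher and orange points (1312) lower with the ketone ester. Actc1 and Nrep lie far to the right and Igfn1 far to the left.

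The semaglutide-treated mice varied more than the other groups. The median SD of log2 values over genes was 0.26 in them, 0.16 in the semaglutide + ketone ester-treated mice and 0.16 in vehicle-treated mice. Mouse 13, given semaglutide, lay at -9.12 on the first principal component, nearer the vehicle-treated and the semaglutide + ketone ester-treated mice (-25.6 to -12.8) than the other 4 semaglutide-treated mice (31.8 to 52.5). Without mouse 13, 4119 genes (33.5%) passed the threshold, 2533 of which were also called with it. Mouse 16 had the highest adipocyte marker sum, described with the other markers. Libraries of the 8 mice held 15319471 to 23498162 reads on genes. The 10 most abundant genes took 22.1% to 27.3% of the normalized counts under semaglutide and 29.9% to 32.0% with the ketone ester. With all columns rescaled to equal totals the median log2 fold change of all genes moved from -0.00024 to -0.24, and 637 genes were higher and 3715 lower. Directions are therefore given on the deposited scaling, and a list whose median changed sign under equal totals is named where it is described. Over all genes tested, 10.0% were called higher and 10.7% lower. The calls in each list below are to be read against these shares. The lists were chosen with earlier results of these data known, so a difference from these shares is not an independent test of a list. Values of single mice follow in the order 13, 14, 15, 16 and 17 for semaglutide and 19, 21 and 22 for semaglutide + ketone ester, and all are normalized counts.

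**Figure D2:**
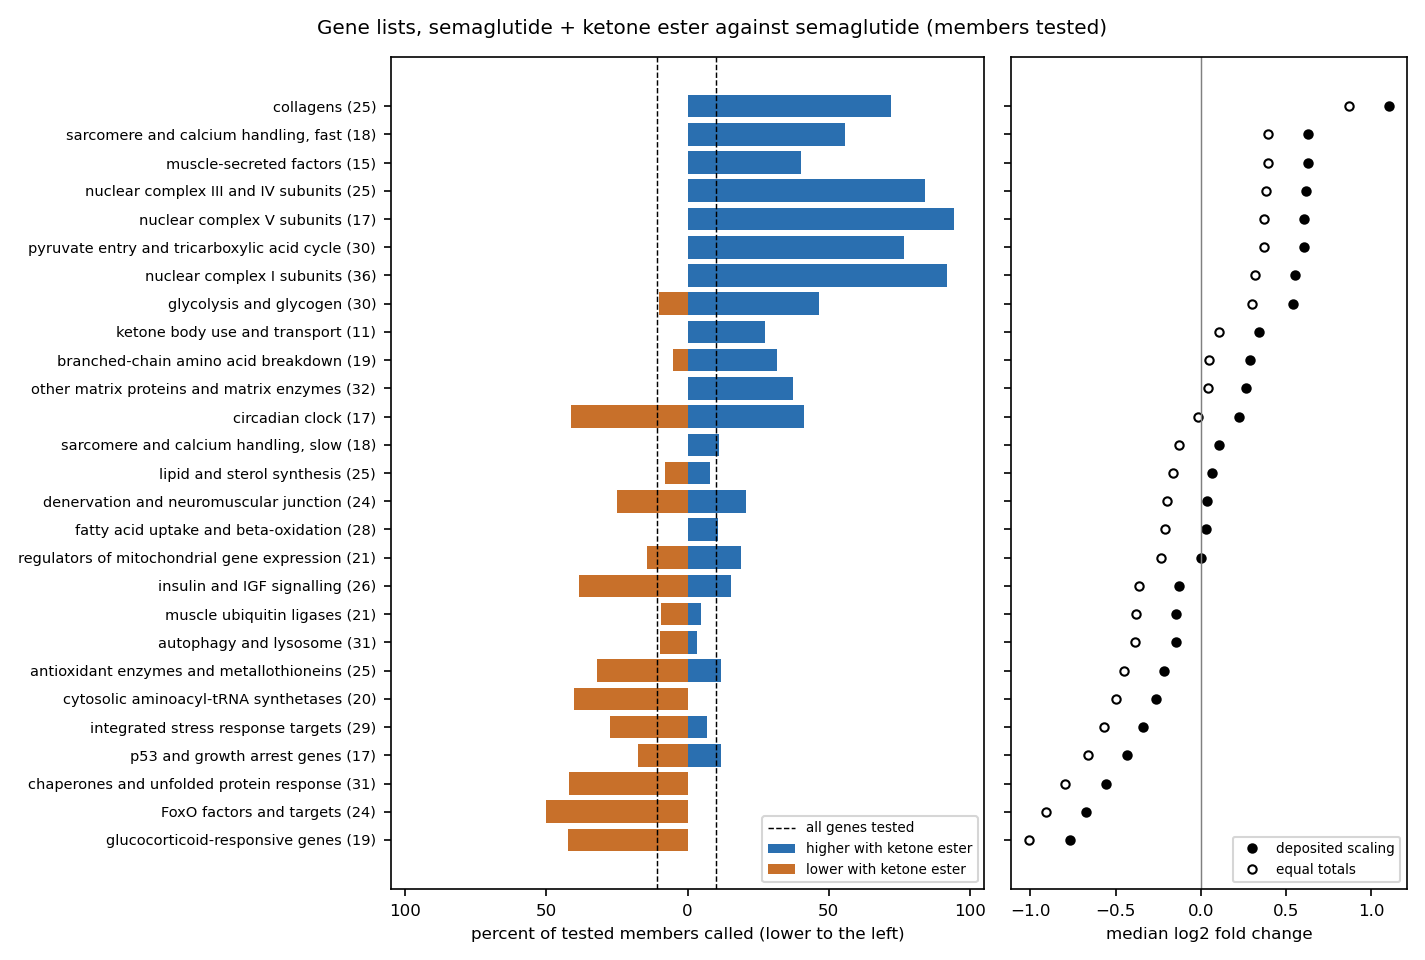
Left, percent of the tested members of 27 gene lists called higher (blue, to the right) or lower (orange, to the left) with the ketone ester, with dashed lines at 10.0% and 10.7%, the shares over all genes tested. Right, median log2 fold change of each list with the deposited scaling (filled) and with equal totals (open), which lie about 0.24 further left.

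The rule for the largest changes took called genes with a mean of at least 100 and no overlap between the 3 and the 5 mice. Separate ranges of genes named by it were thus a condition of the choice, also where such a gene is described later. List members named below for the smallest adjusted p were also chosen by this difference, and 1861 of the 2546 called genes had no overlap. Their separate ranges are therefore no further support. The largest rise by this rule was that of Actc1, the cardiac alpha-actin that skeletal muscle makes during development and regrowth (chromosome 2, 114047282 to 114053548, GRCm38). Its normalized counts were 2709, 185, 838, 239.9 and 240.2 under semaglutide, 2910.1, 37383 and 49782 with the ketone ester and 1064 to 1926 under vehicle. Mice 21 and 22 lay far above every other mouse, whereas mouse 19 was just above mouse 13, the highest of the semaglutide-treated mice (log2 fold change 5.20, SE 0.89, adjusted p = 0.0017). Ostn encodes osteocrin, a secreted peptide that binds the natriuretic peptide clearance receptor (chromosome 16, 27307489 to 27351212). It was counted at 1047, 109, 229.9, 50.5 and 136 under semaglutide and at 2713, 2540.3 and 2691 with the ketone ester. Mouse 13 was the highest of its group, and vehicle-treated mice, at 1568 to 3248, spanned the ketone ester group (log2 fold change 3.88, SE 0.66, adjusted p = 0.0016). Gamt makes creatine from guanidinoacetate (chromosome 10, 80258151 to 80261012). Its counts were 215, 16.9, 23.3, 13.6 and 13.4 under semaglutide, 239, 374 and 387 with the ketone ester and 118 to 172 under vehicle. Mouse 13 again stood apart from its group, and all 3 mice given the ketone ester were above it (log2 fold change 3.51, SE 0.66, adjusted p = 0.0028). Among the other genes with the largest rises, Nrep went from a range of 45.5 to 633 to one of 1154 to 2574, Kcng4, a potassium channel subunit, from a range of 8.74 to 306 to one of 459 to 913, and Dupd1, a dual-specificity phosphatase gene of muscle, from a range of 13.6 to 203 to one of 422 to 524. Cbr2, a carbonyl reductase, went from a range of 60.4 to 158 to one of 402 to 697, and Chad, a matrix protein of cartilage and tendon, from a range of 4.44 to 123 to one of 159.8 to 194 (log2 fold change 3.24, SE 1.03, adjusted p = 0.039). The call of Chad was lost in most of the fits that left out a single mouse.

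The largest fall by the same rule was that of Igfn1, an immunoglobulin-domain protein of the Z-disc of skeletal muscle (chromosome 1, 135953578 to 136006342). Its counts were 619.9, 2301, 2579, 2101 and 947 under semaglutide and 93.5, 65.2 and 207 with the ketone ester. All 3 mice were below the 5 semaglutide-treated mice and also below the 5 vehicle-treated mice, at 552 to 1089 (log2 fold change -3.77, SE 0.45, adjusted p = 0.00034). Tnfrsf12a encodes Fn14, the receptor of the cytokine TWEAK, which rises in denervated and wasting muscle (chromosome 17, 23675445 to 23677468). It was counted at 410.1, 1493, 809.8, 1167 and 730.3 under semaglutide, at 250.2, 58.0 and 73.3 with the ketone ester and at 238 to 479 under vehicle. Mice 21 and 22 were below every vehicle-treated mouse (log2 fold change -3.03, SE 0.45, adjusted p = 0.00077). Cebpd, a transcription factor of the inflammatory and glucocorticoid responses, went from a range of 132 to 1459 under semaglutide to one of 44.7 to 81.4 with the ketone ester, with mouse 13 the lowest of its group. Nr4a3, an orphan nuclear receptor induced by exercise, had counts of 820.1, 1733, 2156, 613 and 1140.5 and 255, 118 and 143, below all 10 other mice (log2 fold change -2.83, SE 0.53, adjusted p = 0.0028). Arhgap26, a regulator of small GTPases, and Tmem100, a membrane protein of endothelium and sensory neurons, fell from a range of 491 to 2167 to one of 166 to 368 and from a range of 401 to 871 to one of 51.7 to 130.5.

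**Figure D3:**
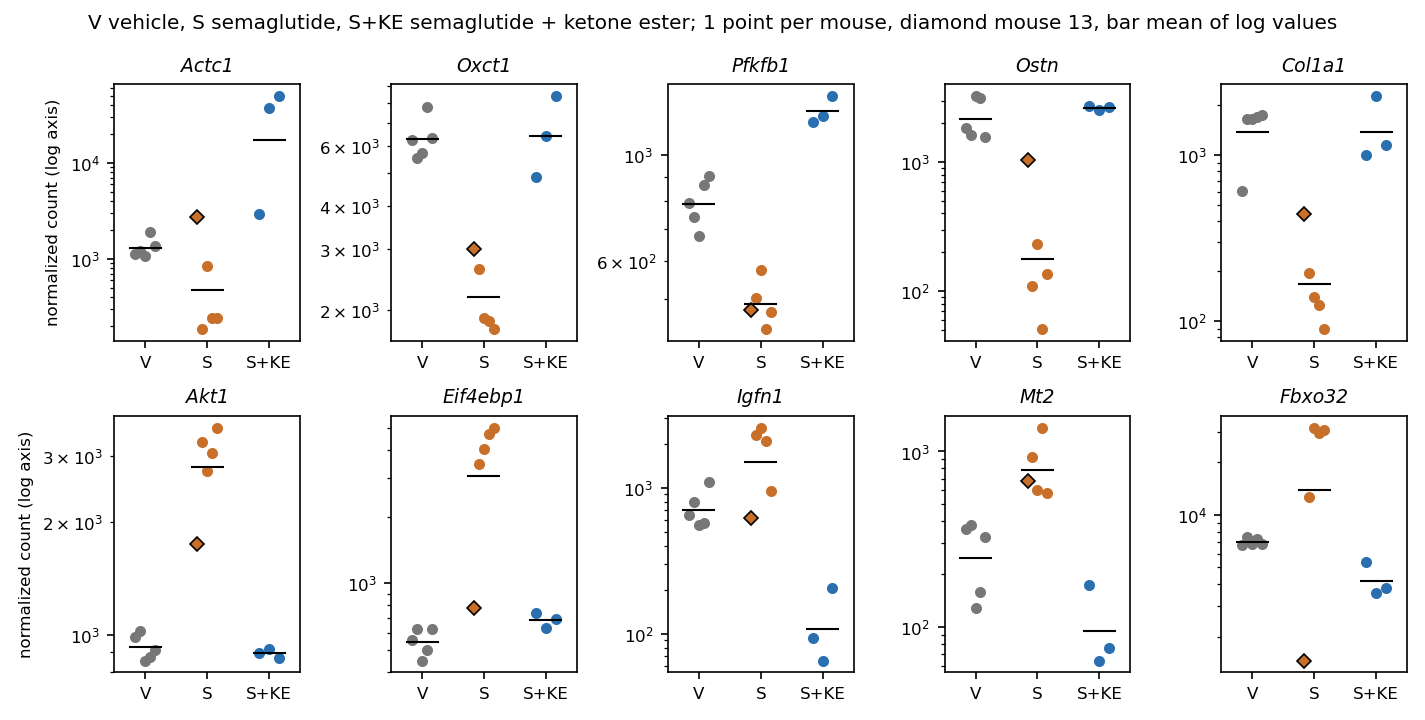
Normalized counts (log axis) of 10 genes in each mouse given vehicle (V), semaglutide alone (S) or both compounds (S+KE), with a bar at the mean of the log values. Mouse 13 (diamond) lies nearest the ketone ester group among semaglutide-treated mice for Actc1, Oxct1, Ostn, Col1a1, Akt1 and Eif4ebp1, and below every ketone ester mouse for Fbxo32.

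Use of ketone bodies was followed first. In muscle, Bdh1 oxidizes beta-hydroxybutyrate to acetoacetate, Oxct1 transfers coenzyme A to acetoacetate and Acat1 splits the product to acetyl-coenzyme A. Of 11 genes of ketone body use and transport tested, 3 were higher and none lower, or 27.3% called against 20.7% of all genes. The median log2 fold change was 0.34 against -0.00024 over all genes. Oxct1, the gene whose product commits acetoacetate to oxidation (chromosome 15, 4026383 to 4155344), was counted at 2995, 2634, 1888, 1856 and 1752 under semaglutide, 4861, 6441 and 8393 with the ketone ester and 5549 to 7786 under vehicle. The groups did not overlap, and the ketone ester mice spanned the vehicle range (log2 fold change 1.56, SE 0.20, adjusted p = 0.0005). Slc16a6, a ketone body exporter of liver, also rose, from a range of 58.9 to 164 to one of 120.2 to 186 with overlap. Bdh1 counts were 341, 767, 178, 279 and 287 and 574, 481 and 939. The groups overlapped, and the difference did not pass the test (log2 fold change 0.96, SE 0.41, adjusted p = 0.11). Acat1 (log2 fold change 0.06, SE 0.13, adjusted p = 0.8) and the uptake transporter Slc16a1 (log2 fold change -0.14, SE 0.16, adjusted p = 0.58) did not pass it either, and their 95% intervals were -0.23 to 0.34 and -0.49 to 0.21. Bdh2 did not reach the mean of 10. Under equal totals Oxct1 was the only gene of the list that was higher, and 1 was lower.

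Pyruvate entry and the tricarboxylic acid cycle had 23 of 30 genes higher and none lower, with a median of 0.61. Sucla2, a subunit of succinyl-coenzyme A ligase, an enzyme whose substrate Oxct1 uses (chromosome 14, 73525319 to 73596142), was counted at 5011, 4474, 4935, 3825 and 4342 under semaglutide and 7036, 8691 and 9557 with the ketone ester. There was no overlap between the groups (log2 fold change 0.89, SE 0.11, adjusted p = 0.00046), and vehicle-treated mice were at 7167 to 7888. Idh3a of the cycle's NAD-dependent isocitrate dehydrogenase (log2 fold change 0.87, SE 0.13, adjusted p = 0.00075), Dlat of the pyruvate dehydrogenase complex (log2 fold change 0.87, SE 0.13, adjusted p = 0.00075) and Mdh2, malate dehydrogenase (log2 fold change 0.74, SE 0.11, adjusted p = 0.00075), rose by similar amounts. Pdp1, the phosphatase that activates pyruvate dehydrogenase, was at 578 to 1265 under semaglutide and at 1604 to 1901 with the ketone ester, above the vehicle-treated mice at 1046 to 1424 (log2 fold change 1.10, SE 0.19, adjusted p = 0.0018). The opposing kinase Pdk4, which fasting and fatty acids induce, was counted at 978, 1274, 34233, 28847 and 24557 under semaglutide, 11475, 4938 and 7942 with the ketone ester and 14647 to 21344 under vehicle. Mice 13 and 14 were below every ketone ester mouse and mice 15 to 17 above, and no difference was found (log2 fold change -0.04, SE 1.02, adjusted p = 0.98, 95% interval -2.21 to 2.14). Cs, citrate synthase, rose from a range of 9597 to 12075 to one of 15206 to 19782, while Ogdh (log2 fold change 0.15, SE 0.11, adjusted p = 0.35), Idh2 (log2 fold change 0.22, SE 0.26, adjusted p = 0.6) and Pdk2 (log2 fold change -0.04, SE 0.10, adjusted p = 0.84) did not pass the test.

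Nuclear subunits of the respiratory chain were also higher, with 33 of 36 genes of complex I, 21 of 25 of complexes III and IV and 16 of 17 of complex V called and none lower. Their medians were 0.55, 0.62 and 0.61, and under equal totals 21, 17 and 10 were higher and 1, 1 and 0 lower. In complex V, the ATP synthase, Atp5j (chromosome 16, 84827866 to 84835625) was counted at 3325, 3473, 3370.2, 2607 and 2891 under semaglutide, 4881, 5547 and 6487 with the ketone ester and 4699.9 to 5428 under vehicle. The groups did not overlap (log2 fold change 0.85, SE 0.11, adjusted p = 0.00058). Atp5g2, 1 of 3 genes for subunit c, was the only member of the list not called, at 22.2 to 39.7 and 27.6 to 41.1, while Atp5g1 and Atp5g3 rose by log2 fold changes of 0.68 and 0.85. Cox7a1, the muscle form of a complex IV subunit, rose by 1.62 on the log2 scale, Uqcrq of complex III by 0.63 and Uqcr11 by 0.51 (adjusted p = 0.00011, 0.0048 and 0.011). Cox20, an assembly factor of complex IV, had counts of 133 to 224 and 205 to 266 (log2 fold change 0.49, SE 0.16, adjusted p = 0.04), and Smdt1, a subunit of the mitochondrial calcium uniporter, had 629 to 914 and 801 to 1001 (log2 fold change 0.09, SE 0.12, adjusted p = 0.63).

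Fatty acid uptake and beta-oxidation stood beside these lists with 3 of 28 genes higher and none lower, or 10.7% called against 20.7% of all genes. The median of 0.03 became -0.21 under equal totals. Acads, the short-chain acyl-coenzyme A dehydrogenase (chromosome 5, 115110299 to 115119346), was counted at 712, 722, 699, 707 and 763 under semaglutide and 1207, 1154 and 1444 with the ketone ester. Ranges of the groups were separate, and vehicle-treated mice lay at 1156 to 1516 (log2 fold change 0.81, SE 0.10, adjusted p = 0.00054). Hadh (log2 fold change 0.57, SE 0.15, adjusted p = 0.015) and Acaa2 (log2 fold change 0.52, SE 0.18, adjusted p = 0.049), which act on short and medium chains late in the spiral, also rose. The gate of the pathway, Cpt1b, was counted at 3896 to 7371 and 4727 to 6276 (log2 fold change -0.06, SE 0.17, adjusted p = 0.84, 95% interval -0.43 to 0.31), and Acadvl, which opens the oxidation of long chains, at 2751 to 4920.5 and 3949.9 to 5427 (log2 fold change 0.12, SE 0.18, adjusted p = 0.68). Without mouse 13, 2 genes of the list were higher, Acaa2 no longer among them (adjusted p = 0.056), and Acadl, Eci2, Mlycd and Slc27a1 were lower. Under equal totals Acads alone was higher.

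Among 21 regulators of mitochondrial gene expression, 4 were higher and 3 lower, with a median of 0.0015 that became -0.24 under equal totals, where 3 were higher and 9 lower. Without mouse 13, 5 were higher and 6 lower, with a median of -0.054. Esrra, a nuclear receptor that drives oxidative genes, went from a range of 798 to 1369 to one of 1433 to 1882 (log2 fold change 0.72, SE 0.18, adjusted p = 0.015). Sirt3, the mitochondrial deacetylase, rose from a range of 100 to 201 to one of 209 to 268, and Tfam, which packages mitochondrial DNA and was not called under equal totals, from a range of 505 to 598 to one of 646 to 692. The call of Tfam was lost in most of the fits that left out a single mouse. Nrf1 (log2 fold change -0.70, SE 0.16, adjusted p = 0.0084), Ppard (log2 fold change -0.48, SE 0.11, adjusted p = 0.0095) and the coactivator Pprc1 (log2 fold change -0.40, SE 0.10, adjusted p = 0.015) fell. Ppargc1a, the coactivator PGC-1alpha, was counted at 944, 2870.4, 2519, 1021 and 2506 under semaglutide, 1054, 710.3 and 1133 with the ketone ester and 1501 to 3108 under vehicle. The 3 ketone ester mice were below all vehicle-treated mice, but overlapped the semaglutide-treated mice (log2 fold change -0.90, SE 0.37, adjusted p = 0.099, and 0.016 without mouse 13).

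Glycolysis and glycogen genes were higher in 14 and lower in 3 of 30, with a median of 0.54. Pfkfb1 encodes a bifunctional enzyme that sets fructose 2,6-bisphosphate, the activator of glycolysis (chromosome X, 150588229 to 150643878). Its counts were 474, 504, 577, 433 and 471 under semaglutide, 1171, 1207 and 1324 with the ketone ester and 677 to 901 under vehicle. The 3 groups formed 3 separate ranges, the ketone ester group highest, and the adjusted p was the smallest of all genes tested (log2 fold change 1.33, SE 0.11, adjusted p = 9e-05). Pkm, pyruvate kinase, rose from a range of 18996 to 55156 to one of 59503 to 75912 (log2 fold change 1.23, SE 0.25, adjusted p = 0.0042), and Phkg1, the catalytic subunit of phosphorylase kinase, from a range of 2672 to 8517 to one of 9898 to 10339. The 3 genes that fell were Ppp1r1a, an inhibitor of protein phosphatase 1 (1413 to 2631 and 728 to 872, log2 fold change -1.30, SE 0.21, adjusted p = 0.0012), and Gyg and Ugp2, which act in glycogen synthesis (log2 fold change -0.87, SE 0.20, adjusted p = 0.0083 and log2 fold change -1.21, SE 0.28, adjusted p = 0.0084). Aldoa (log2 fold change 0.00, SE 0.18, adjusted p = 1) and the phosphorylase Pygm (log2 fold change 0.38, SE 0.17, adjusted p = 0.14) did not pass the test.

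Of 18 genes of the fast sarcomere and its calcium handling, 10 were higher and none lower, with a median of 0.63. Pvalb, the calcium buffer of fast fibres (chromosome 15, 78191114 to 78206400), was counted at 93017, 35197, 46270, 19840 and 33226 under semaglutide, 121140, 169760 and 151410 with the ketone ester and 88963 to 119280 under vehicle. All 3 ketone ester mice were above all 10 other mice (log2 fold change 1.88, SE 0.35, adjusted p = 0.0025). Myl1, the fast essential light chain, went from a range of 30399 to 94673 to one of 123320 to 174380 (log2 fold change 1.73, SE 0.29, adjusted p = 0.0014), Tpm1, alpha-tropomyosin, from a range of 77882 to 237900 to one of 309700 to 390230, and Casq1, the fast calsequestrin, from a range of 6167 to 45263 to one of 43660 to 60580. Actn3, the fast alpha-actinin, had lower counts with the ketone ester, 170320 to 197740 against 208310 to 351570, and did not pass the test (log2 fold change -0.58, SE 0.20, adjusted p = 0.053, and 0.042 without mouse 13). In the slow list, 2 of 18 were higher and none lower, or 11.1% called against 20.7% of all genes. Its median was 0.11 (-0.13 under equal totals, with 1 higher), and without mouse 13, 3 were higher and 1 lower. The 2 were Mybph, a myosin-binding protein (4228, 1497, 518, 1859 and 987 and 7391, 5620.5 and 7733, log2 fold change 2.26, SE 0.46, adjusted p = 0.0042), and Pln, the inhibitor of the slow calcium pump (log2 fold change 0.82, SE 0.26, adjusted p = 0.039). The call of Pln was lost in most of the fits that left out a single mouse. Myh7, the slow myosin, spread widely in every group, 3035 to 14800 under vehicle, 3106 to 9702 under semaglutide and 4629.9 to 10621 with the ketone ester (log2 fold change 0.32, SE 0.47, adjusted p = 0.68).

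Clock genes moved in both directions. The molecular clock pairs Arntl (BMAL1) with Clock to drive genes with an E-box, among them their own repressors of the Per and Cry families and the output factors Dbp, Tef and Hlf. Nuclear receptors of the ROR and Rev-erb families act in turn on the ROR elements of Arntl and Nfil3. Of 17 clock genes tested, 7 were higher and 7 lower, or 82.4% called against 20.7% of all genes. The list's median was 0.22, and -0.016 under equal totals. Under equal totals 4 were higher and 7 lower, and Per3, Nr1d2 and Hlf no longer passed. Npas2 did not reach the mean of 10. Some sequences are given as examples of the elements. For Ciart, a repressor of the clock, and Nfil3, a repressor of D-box genes, they are the 250 bases before the RefSeq start. For Arntl it is the stretch that holds its ROR core. Capitals mark the E-box CACGTG in Ciart and the ROR core TAGGTCA, on either strand, in Nfil3 and Arntl (GRCm38.p6, strand of the gene).
Ciart, chr3:95882229-95882478 (minus strand): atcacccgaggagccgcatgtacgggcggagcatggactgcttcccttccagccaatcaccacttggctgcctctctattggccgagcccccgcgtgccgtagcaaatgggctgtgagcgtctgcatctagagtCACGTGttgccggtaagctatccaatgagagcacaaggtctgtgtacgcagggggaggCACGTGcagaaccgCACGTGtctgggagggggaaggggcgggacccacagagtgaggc
Nfil3, chr13:52981040-52981289 (minus strand): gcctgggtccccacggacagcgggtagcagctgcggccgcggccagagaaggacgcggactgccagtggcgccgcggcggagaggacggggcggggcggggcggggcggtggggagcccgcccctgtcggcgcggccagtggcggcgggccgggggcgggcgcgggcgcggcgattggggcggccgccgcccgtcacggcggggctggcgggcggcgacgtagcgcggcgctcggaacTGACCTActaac
Arntl, chr7:113207529-113207558 (plus strand): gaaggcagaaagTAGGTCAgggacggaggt

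Ciart held 3 E-boxes and Nfil3 and Arntl 1 ROR core each, the latter within 50 bases after a start. In windows from 250 bases before to 50 after the start, CACGTG was found for 4 of the 14 clock genes with a window (Bhlhe41, Ciart, Cry1 and Tef) and in 9.86% of 12410 windows of tested genes, and TAGGTCA for 2 of the 14 and in 1.83%. Within these windows, the elements did not divide the list by direction. Elements farther from the start or with other letters were not searched, nor were clock genes without a window. Whether such elements follow direction cannot be told from this search. Dbp, Per3 and Nr1d2 rose without a CACGTG in the window, and Cry1, which held 1, fell. Clock and Rora fell without a TAGGTCA. Ciart was counted at 45.5, 32.7, 26.7, 32.0 and 43.3 under semaglutide and 63.2, 67.6 and 90.1 with the ketone ester. All 3 mice were above the semaglutide-treated mice and within the vehicle range of 62.9 to 153 (log2 fold change 1.02, SE 0.29, adjusted p = 0.023). Arntl (chromosome 7, 113207465 to 113314126) had counts of 223, 439.5, 401, 333 and 299 under semaglutide, 145, 84.6 and 114 with the ketone ester and 254 to 340.4 under vehicle. Its 3 values were below those of all 10 other mice (log2 fold change -1.55, SE 0.21, adjusted p = 0.00057). Mouse 13, at 223, was the lowest of those 10 and so the nearest to the ketone ester mice. Nfil3 was counted at 468, 779, 645, 438 and 374 and 356, 242 and 275, again without overlap and below the vehicle range of 548 to 951 (log2 fold change -0.86, SE 0.24, adjusted p = 0.021).

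Dbp, the output factor (chromosome 7, 45705088 to 45710203), had counts of 1272, 292, 288, 286 and 364 under semaglutide, 2080.5, 2201 and 2241 with the ketone ester and 1190.1 to 1517 under vehicle. It was the reverse of Arntl, with all 3 ketone ester mice above the 10 other mice, and mouse 13 within the vehicle range (log2 fold change 2.42, SE 0.37, adjusted p = 0.00094). Per3 went from a range of 420.4 to 623 to one of 630.4 to 899 and Nr1d2 (Rev-erb beta) from a range of 1777 to 2185 to one of 2300.4 to 2779, and neither group pair overlapped (log2 fold change 0.52, SE 0.14, adjusted p = 0.016 and log2 fold change 0.35, SE 0.09, adjusted p = 0.011). The repressors Bhlhe40 and Bhlhe41 also rose (log2 fold change 0.96, SE 0.21, adjusted p = 0.0065 and log2 fold change 0.88, SE 0.21, adjusted p = 0.0091). Clock (log2 fold change -0.48, SE 0.10, adjusted p = 0.0047), Cry1 (log2 fold change -0.52, SE 0.15, adjusted p = 0.025) and Rora (log2 fold change -1.07, SE 0.23, adjusted p = 0.0053) fell, of which Rora was at 2748 to 5700.3 under semaglutide, 1545 to 2432 with the ketone ester and 2102 to 3047 in vehicle-treated mice. Nr1d1 (Rev-erb alpha) was counted at 1083 to 2951 and 1517 to 2106 and did not pass the test (log2 fold change 0.20, SE 0.25, adjusted p = 0.62). No time of day was given for the collection of any group, and its part in these values was not tested.

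**Figure D4:**
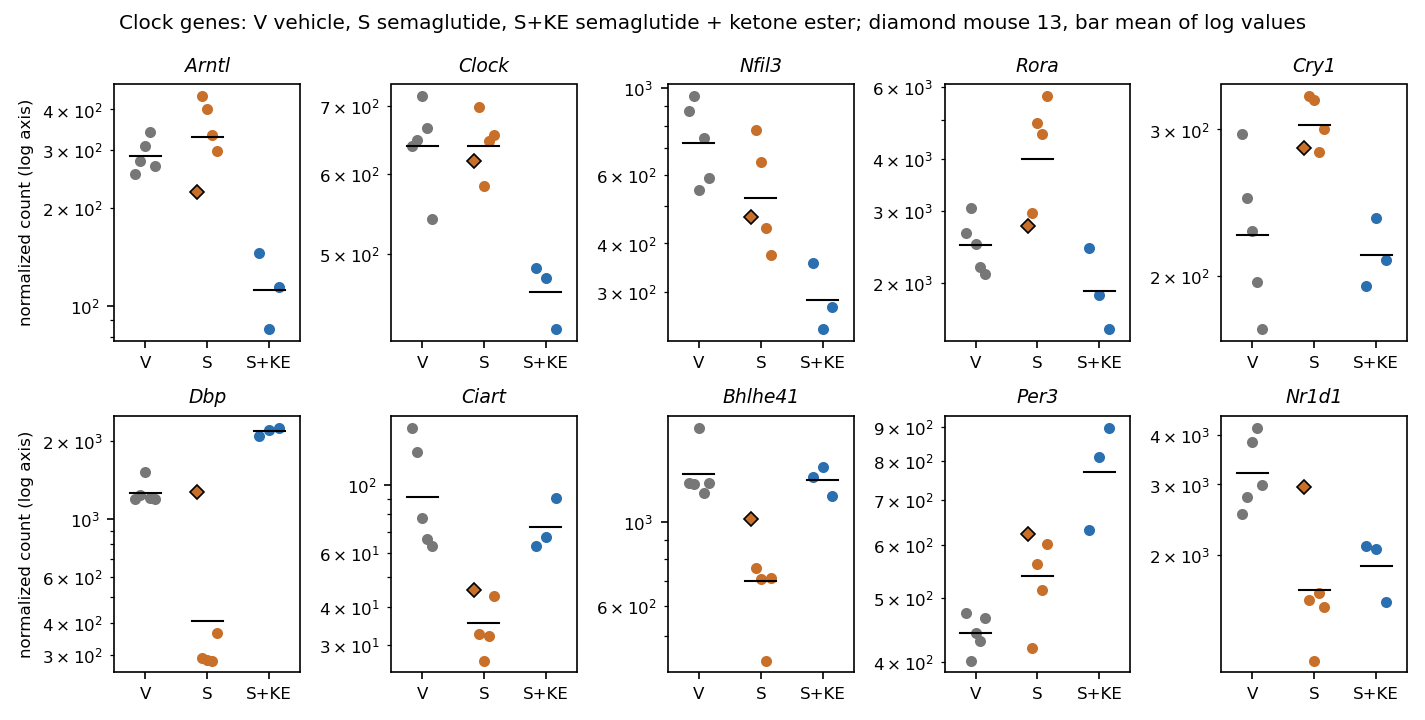
Normalized counts (log axis) of 10 clock genes in each mouse given vehicle (V), semaglutide alone (S) or both compounds (S+KE), mouse 13 as a diamond, bars at the mean of the log values. Arntl and Nfil3 were lowest and Dbp and Per3 highest in the 3 ketone ester mice, and Nr1d1 overlapped between S and S+KE.

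Insulin and IGF signalling had 4 genes higher and 10 lower of 26, with a median of -0.13. Akt1, the kinase at the centre of the pathway (chromosome 12, 112653821 to 112674884), was counted at 1751, 3276, 2748, 3072 and 3578 under semaglutide, 895, 919 and 871 with the ketone ester and 855 to 1027 under vehicle. All semaglutide-treated mice, mouse 13 included, were above all other mice, and the ketone ester mice lay in the vehicle range (log2 fold change -1.65, SE 0.17, adjusted p = 0.00022). Grb14, which inhibits the insulin receptor (chromosome 2, 64912476 to 65024987), was counted at 109, 90.2, 71.1, 53.4 and 47.0 under semaglutide, 265, 237 and 437 with the ketone ester and 278 to 531 under vehicle, without overlap of the first 2 groups (log2 fold change 2.08, SE 0.29, adjusted p = 0.00064). Akt2, Tsc1, which restrains mTORC1, and Tbc1d4, which holds back the glucose transporter, fell by log2 fold changes of -0.48, -0.54 and -0.67 (adjusted p = 0.0087, 0.0013 and 0.0034). Igf1r went from a range of 403 to 664 to one of 318 to 414 (log2 fold change -0.57, SE 0.17, adjusted p = 0.028). The glucose transporter Slc2a4 (log2 fold change 0.22, SE 0.18, adjusted p = 0.43) and the substrate Irs1 (log2 fold change -0.14, SE 0.36, adjusted p = 0.82) did not pass the test.

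FoxO factors and their targets were lower in 12 of 24 genes and higher in none, with a median of -0.67. Eif4ebp1, which blocks cap-dependent translation (chromosome 8, 27260329 to 27276674), was counted at 772, 3466, 4047, 4713 and 5033 under semaglutide, 737, 627 and 689 with the ketone ester and 448 to 621 under vehicle. Mice 14 to 17 formed a group far above all others, and mouse 13 was next to the ketone ester mice (log2 fold change -2.15, SE 0.45, adjusted p = 0.0047). Irs2, the insulin receptor substrate that FoxO induces (chromosome 8, 10984681 to 11008458), had counts of 1117, 1391, 1247, 1127 and 949.6, 562, 594 and 439 and 716 to 1021 in the same order of groups. Here mouse 13 lay with its group, and the ketone ester mice were below all 10 others (log2 fold change -1.13, SE 0.15, adjusted p = 0.00057). Depp1, a FoxO target of autophagy, went from a range of 82.2 to 1394 to one of 36.2 to 57.1, and Foxo1 itself from a range of 621 to 1122 to one of 302 to 553, with 1175 to 2745 under vehicle (log2 fold change -1.09, SE 0.29, adjusted p = 0.019). Klf15, which promotes amino acid breakdown, fell from a range of 357 to 1159.6 to one of 312 to 513 with overlap (log2 fold change -1.004, SE 0.33, adjusted p = 0.044). Its call was lost when any mouse other than 3 or 13 was left out.

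Muscle ubiquitin ligases were called higher in 1 and lower in 2 of 21, or 14.3% against 20.7% of all genes, and under equal totals in 0 and 8. Fbxo31 (log2 fold change -0.81, SE 0.15, adjusted p = 0.0025) and Fbxo9 (log2 fold change -0.32, SE 0.11, adjusted p = 0.047) fell and Trim55 (log2 fold change 0.71, SE 0.22, adjusted p = 0.032) rose. The call of Fbxo9 was lost when any mouse other than 13 or 16 was left out. The atrophy ligase Fbxo32, atrogin-1 (chromosome 15, 58175879 to 58214932), was counted at 1460.3, 12699, 31652, 29676 and 30758 under semaglutide, 5372, 3567 and 3808 with the ketone ester and 6729.6 to 7444 under vehicle. Mice 14 to 17 were above all vehicle-treated mice and mouse 13 was below every other mouse, and the difference did not pass the test (log2 fold change -1.74, SE 0.74, adjusted p = 0.11). Trim63, MuRF1, had the same pattern, 1206, 4600.2, 11735, 13333 and 12256 and 3121, 2145 and 2151 (log2 fold change -1.39, SE 0.60, adjusted p = 0.11). Without mouse 13 both passed (adjusted p = 7.7e-06 and 0.00026), and 7 of the 21 ligases were lower and 2 higher.

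Genes of the stress responses were lower more often than higher. Of 31 chaperones and unfolded protein response genes, 13 were lower and none higher, with a median of -0.56, and 22 were lower under equal totals. Xbp1, the transcription factor of the endoplasmic reticulum stress response (chromosome 11, 5520659 to 5525893), was counted at 1403, 2111, 1672, 1943 and 1876 under semaglutide, 930.4, 994 and 830.4 with the ketone ester and 758 to 1004 under vehicle. The groups did not overlap and the ketone ester mice were in the vehicle range (log2 fold change -0.96, SE 0.13, adjusted p = 0.00059). The luminal chaperones Hspa5 (BiP), Hsp90b1 and Calr fell by log2 fold changes of -0.86, -0.85 and -0.62 (adjusted p = 0.0026, 0.001 and 0.0027). The cytosolic Hspa1b, which shares sequence with Hspa1a so that reads may be split between them, was at 123 to 365 and 67.6 to 118 and at 292 to 863 under vehicle (log2 fold change -1.21, SE 0.39, adjusted p = 0.039). The call of Hspa1b was lost in most of the fits that left out a single mouse. Cryab (log2 fold change -0.00, SE 0.31, adjusted p = 0.99) and Bag3 (log2 fold change 0.02, SE 0.17, adjusted p = 0.95) did not pass the test. In the integrated stress response, 8 of 29 genes were lower and 2 higher, with a median of -0.34. Ppp1r15a (GADD34), which ends the response, was counted at 407, 1279, 1282, 1402 and 1304 and 333, 244 and 324, below all vehicle-treated mice (log2 fold change -1.80, SE 0.32, adjusted p = 0.0019). Atf4, its central factor, fell from a range of 2917 to 5013 to one of 2334 to 2714 (log2 fold change -0.69, SE 0.14, adjusted p = 0.0038), whereas Ddit3 (CHOP) and Trib3 did not pass the test (log2 fold change 0.44, SE 0.28, adjusted p = 0.27 and log2 fold change -0.34, SE 0.41, adjusted p = 0.6).

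Genes that respond to glucocorticoids were lower in 8 of 19 and higher in none, with a median of -0.77. They include the metallothioneins Mt1 and Mt2, which bind zinc and copper and respond to metals through the factor MTF1 as well as to glucocorticoids. The 250 bases before their RefSeq starts are given to show the metal response element cores, TGCACNC or TGCGCNC on either strand, in capitals (GRCm38.p6, plus strand).
Mt1, chr8:94178839-94179088: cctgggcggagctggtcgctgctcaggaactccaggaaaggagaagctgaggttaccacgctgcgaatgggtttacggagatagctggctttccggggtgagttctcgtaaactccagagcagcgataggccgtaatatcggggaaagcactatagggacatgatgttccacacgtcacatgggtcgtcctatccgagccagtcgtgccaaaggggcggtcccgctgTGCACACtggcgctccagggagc
Mt2, chr8:94172368-94172617: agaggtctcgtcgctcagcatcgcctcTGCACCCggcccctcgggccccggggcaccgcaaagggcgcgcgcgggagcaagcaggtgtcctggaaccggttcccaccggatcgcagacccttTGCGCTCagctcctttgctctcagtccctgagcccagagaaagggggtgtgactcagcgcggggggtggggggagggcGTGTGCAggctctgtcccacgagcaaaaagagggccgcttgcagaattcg

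The core was found in both genes and in 35.6% of all windows of tested genes. Mt2 was counted at 682, 929, 601, 1367 and 577 under semaglutide, 174, 64.0 and 75.7 with the ketone ester and 129 to 379 under vehicle. There was no overlap between the groups, and mice 21 and 22 were below every vehicle-treated mouse (log2 fold change -3.04, SE 0.41, adjusted p = 0.00058). Mt1 had counts of 689, 1242, 1016, 1949 and 835 and 250.2, 145 and 204 with the same order of groups (log2 fold change -2.45, SE 0.31, adjusted p = 0.00054). Lcn2, lipocalin 2, a secreted iron carrier of inflammation, was counted at 72.5, 113, 253, 325 and 145, 18.2, 12.1 and 24.0 and, under vehicle, 6.65 to 20.6 (log2 fold change -3.10, SE 0.46, adjusted p = 0.00081). Fkbp5 and Tsc22d3 (GILZ), further glucocorticoid targets, fell by less (log2 fold change -0.92, SE 0.26, adjusted p = 0.023 and log2 fold change -0.50, SE 0.15, adjusted p = 0.028), and the receptor Nr3c1 did not pass the test (log2 fold change 0.26, SE 0.16, adjusted p = 0.26). Of 25 antioxidant enzymes and their regulators, 8 were lower, among them Keap1, the brake on NRF2 (1921 to 2312 and 1354 to 1476, log2 fold change -0.57, SE 0.08, adjusted p = 0.00069), and Gpx3, the extracellular glutathione peroxidase (log2 fold change -1.19, SE 0.26, adjusted p = 0.0071). The mitochondrial Sod2 and Prdx3 and the cytosolic Prdx2 were the 3 that rose (log2 fold change 0.67, SE 0.13, adjusted p = 0.003, log2 fold change 0.45, SE 0.08, adjusted p = 0.0026 and log2 fold change 0.53, SE 0.09, adjusted p = 0.0014).

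Collagens were higher in 18 of 25 and lower in none, with a median log2 fold change of 1.10. Col1a1, a chain of type I collagen (chromosome 11, 94936224 to 94953042), was counted at 444, 195, 140, 125 and 89.5 under semaglutide, 1008, 2265 and 1155 with the ketone ester and 611 to 1736 under vehicle. Ranges of the groups were separate, and mice 19 and 22 lay within the vehicle range (log2 fold change 3.03, SE 0.46, adjusted p = 0.00092). Col1a2, the other chain, moved with it, from a range of 169 to 736 to one of 1618 to 3021 (log2 fold change 2.90, SE 0.46, adjusted p = 0.0011). Other matrix proteins and matrix enzymes were higher in 12 of 32 and lower in none, with a median of 0.27. Under equal totals 6 of them were higher and 4 lower, with a median of 0.044, and without mouse 13, 13 were higher and 4 lower, with a median of 0.44. Muscle-secreted factors were higher in 6 of 15 (9 without mouse 13, and under equal totals 6 higher and 2 lower), with Fndc5, the precursor of irisin (416 to 556 and 922 to 1476, log2 fold change 1.20, SE 0.20, adjusted p = 0.0015), and Il15, a growth factor of lymphocytes that muscle secretes (34.8 to 66.6 and 96.0 to 198, log2 fold change 1.47, SE 0.35, adjusted p = 0.0096), besides Ostn. Myostatin, Mstn, did not pass the test (log2 fold change -0.31, SE 0.21, adjusted p = 0.31).

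Most fibro-adipogenic and tendon markers were higher, as many matrix genes were, and some of these markers are also members of the matrix lists. Fibro-adipogenic markers were higher in 4 of 6 and summed to 1129 to 2136 normalized counts under semaglutide, 3441 to 5834 with the ketone ester and 2937 to 5659 under vehicle, where Col1a1 and Col3a1 also belong to the collagen list. Tendon markers rose in 3 of 5, with Tnmd at 27.1, 9.02, 10.0, 1.94 and 4.48 under semaglutide and 81.4, 122 and 132 with the ketone ester, and Kera at 8.70, 3.38, 0.00, 0.00 and 1.49 and 119, 196 and 139. The tendon transcription factor Scx fell, with overlap, 178, 121, 94.4, 67.0 and 55.2 and 57.1, 45.9 and 33.6. The tendon sum was 310 to 1694 under semaglutide and 2281 to 2723 with the ketone ester, and vehicle mouse 1, at 573, was far below the other vehicle-treated mice. Most of this sum was Fmod, at 247 to 1463 under semaglutide and 1998 to 2359 with the ketone ester. Fmod also belongs to the list of other matrix proteins. Tendon and fibroblast RNA in the dissected muscle, and its part in the rise of matrix genes, was not tested.

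Erythroid genes were higher in 5 of 5, although the haemoglobin genes are near-identical pairs whose reads may be split. Their sum was 50.5 to 3148 under semaglutide, with mice 14, 16 and 17 lowest, 2849 to 5558 with the ketone ester and 1356 to 2291 under vehicle. Alas2, the erythroid enzyme of haem synthesis, was counted at 50.3, 0.00, 14.4, 0.971 and 1.49 and 61.9, 89.4 and 91.3. Residual blood and its part in other differences was not tested. The myofibre markers summed to 1416000 to 2570000 under semaglutide and 2946000 to 3548000 with the ketone ester, with 3 of 6 called higher. All 6 also belong to the fast sarcomere list. Endothelial markers were higher in 3 of 7, with a median of 0.23, and their sums overlapped (3993 to 4508 and 4356 to 5089). Under equal totals none of them was higher and 1 was lower, with a median of -0.0047, and without mouse 13, 4 were higher and 1 lower. Smooth muscle and pericyte markers were higher in 2 of 6, and of 3 satellite cell markers 1 was lower, with a median of 0.051 that became -0.17 under equal totals and -0.018 without mouse 13. No adipocyte, macrophage or Schwann marker of 8, 8 and 6 was called, and the macrophage median of 0.18 became -0.056 under equal totals, where 1 Schwann marker was lower. Mouse 16 had an adipocyte sum of 19950 against 1800 to 3868 in the 4 other semaglutide-treated mice. Without mouse 16, 2395 genes passed the threshold.

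**Figure D5:**
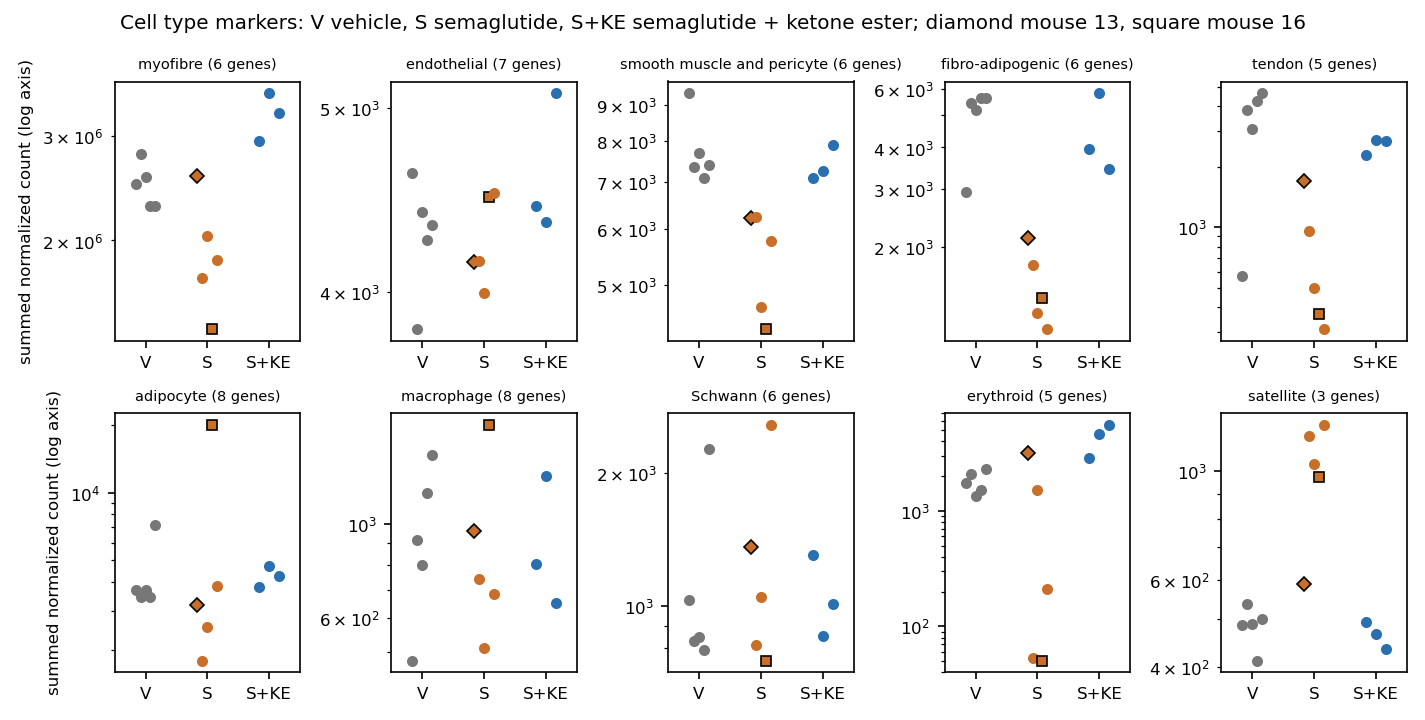
Summed normalized counts (log axis) of the tested markers of 10 cell types in each mouse given vehicle (V), semaglutide alone (S) or both compounds (S+KE). Fibro-adipogenic and tendon sums were higher in all 3 S+KE mice than in all S mice, erythroid sums spread from 50.5 to 3148 under S, and mouse 16 (square) had the highest adipocyte sum.

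The 3 ketone ester mice lay above all 10 other mice in 136 called genes and below them in 178, and outside their range in 395 (3.21%) of all genes tested, whether called or not. Those named by rule on the upper side were Actc1, Gamt, Dbp, Mybph, Ky and Itgb1bp2. Ky, a muscle protein needed for the upkeep of fibres and their junctions (chromosome 9, 102505750 to 102546239), was counted at 5039.6, 2341, 2782, 953 and 1689.5 under semaglutide, 8305, 11650 and 11189 with the ketone ester and 4068 to 6836 under vehicle. The ketone ester mice were above all mice of both other groups, which the rule required (log2 fold change against semaglutide 2.21, SE 0.37, adjusted p = 0.0015). Itgb1bp2, melusin, a chaperone of striated muscle that binds integrin, was at 1614, 503, 451, 391 and 356 and 1778, 2378 and 2533, with vehicle at 1538 to 1754 so that mouse 19 was just above it (log2 fold change 2.00, SE 0.36, adjusted p = 0.0021). On the lower side were Igfn1, Nr4a3, Arhgap26, Ppp1r15a, Rassf4 and Arntl. Rassf4, of the Ras association family, was at 63.8 to 294 under semaglutide and at 47.4 to 49.5 with the ketone ester, against 55.7 to 96.6 under vehicle (log2 fold change -1.74, SE 0.40, adjusted p = 0.0087). Set against vehicle-treated mice directly, Igfn1 and Arntl had log2 fold changes of -2.70 and -1.36 (adjusted p = 0.023 and 0.013, limma), while those of Actc1, Gamt, Dbp, Mybph and Ky did not pass the threshold (adjusted p = 0.1, 0.6, 0.48, 0.16 and 0.38).

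Examples of genes without a difference were named by rule among abundant genes with a small standard error. Tomm70a, an import receptor of the outer mitochondrial membrane, was counted at 1219, 1295, 1239.7, 1191 and 1217 and 1296, 1229.7 and 1261, with a 95% interval of the log2 fold change of -0.11 to 0.18. Uba1, the ubiquitin-activating enzyme, and Igf2r, the mannose 6-phosphate receptor, had intervals of -0.19 to 0.11 and -0.13 to 0.17. Under equal totals Tomm70a and Uba1 were called lower, with log2 fold changes of -0.20 and -0.28.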

How the data were processed

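RNA from gastrocnemius muscle of 13 mice was sequenced as stranded mRNA libraries. The authors used DRAGEN to align paired-end reads to mm10. The deposited values are gene-level normalized counts, a scaled read signal, and DESeq2 is named in the submitters' processing notes. The counting program and annotation are not given in the sources used here. All values of a mouse were whole multiples of a single step (100% within 0.01 reads), so whole reads were recovered. Nothing in the labels says that libraries of a group differed in more than the mouse.

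For 12303 of 21868 genes with a mean of at least 10, log2(normalized count + 1) was fitted with limma 3.58.1 (R 4.3.3) for all 3 groups, with a mean-variance trend, and adjusted p-values are Benjamini-Hochberg values over all of them (threshold 0.05). Fold changes on this scale understate the change of low genes. SE is the standard error of the fitted difference. The fits were tested on simulated counts with the same setting for the variation between mice in every gene and group. The wider spread under semaglutide and the position of mouse 13 were not covered by this test. edgeR 4.0.16 and DESeq2 1.42.0 on recovered reads were alternatives, as were 5 as pseudocount, no filter, other scalings, sample weights, 2 groups only and each mouse left out.

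Named genes were, by rule, the 10 largest changes each way among called genes without overlap and with a mean of at least 100, up to 4 genes of smallest adjusted p and other described members of each list, genes with primers in the study, the 6 largest each way outside all 10 other mice, and 3 without a difference. Some genes that the rule names are not reported here. The comparison, gene lists and rules were chosen with earlier results of these data known. Gene positions are from GENCODE M21, promoters from RefSeq (GRCm38.p6). 3 reads make up at most 1.96e-05% of a library, counting error only.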

Additional observations from a re-analysis of the deposited data

Results flagged for a closer look

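In groups of 5 mice, a mouse is named here when its log2 value lay farther from the nearest other mouse than Dixon's 95% critical value of 0.710 of the group's range allows. Chance marks about 1 in 20 groups, and 29 of 306 groups of the 153 genes named in the text were marked. Mouse 13 accounted for 16 of 17 marks under semaglutide. It was the highest semaglutide-treated mouse for Col1a2 (736), Dbp (1272), Gamt (215), Itgb1bp2 (1614), Nrep (633) and Slc16a6 (164). It was the lowest for Acadl (2700.2), Acadvl (2751), Eif4ebp1 (772), Fbxo31 (3385), Fkbp5 (1318), Idh2 (3168), Klf15 (357), Ppp1r15a (407), Ugp2 (9836) and Vars (891). Mouse 14 was the highest for Ivd (1944). Under vehicle, mouse 1 was the lowest for Chad (20.6), Col1a1 (611), Col1a2 (795), Col3a1 (883), Tnmd (26.3) and Tomm70a (1259.9) and the highest for Idh3a (9953). Vehicle mouse 3 was the highest for Bhlhe41 (1774) and Dbp (1517) and the lowest for Slc16a6 (75.5), mouse 2 the highest for Hspa5 (3129) and mouse 5 the lowest for Trim55 (983). All are normalized counts.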

How the results depend on the processing

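Precision is limited by the 3 mice given the ketone ester and by mouse 13. Against 2546 genes that differed (1234 higher, 1312 lower), 1208 did with only the 2 groups in the model (591 and 617), 4352 with equal totals (637 and 3715) and 4436 with sample weights (2100 and 2336). The cause of the change with 2 groups was not tested. With single mice left out, 1148 to 4119 genes differed (549 to 2017 higher, 599 to 2102 lower), with the lowest counts without mouse 22 (1148) and mouse 21 (1264) and the highest without mouse 13. The other alternatives lay between 2283 (no filter, 16885 genes) and 2935 (DESeq2), with 2557 in edgeR, and 2262 without the mean-variance trend, an alternative chosen after seeing the data. Of 118 called genes named in the text, 81 were called in the same direction under all 22 alternatives. Under equal totals Tomm70a changed from 0.03 to -0.20 on the log2 scale and was called lower. Calls of 31 named genes were lost without mouse 22, 26 without mouse 21 and 2 (Acaa2 and Acaca) without mouse 13, which added 8 others. Klf15, Fbxo9, Cox20, Acaa2, Hspa1a, Hspa1b, Pln, Tfam, Chad and Acaca lost their calls in most of the fits with 1 mouse left out. No paired analysis was possible because the groups held different mice and the labels link none of them across groups.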

Other observations

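Cytosolic aminoacyl-tRNA synthetases, which charge amino acids for translation, were lower in 8 of 20 and higher in none, with a median log2 fold change of -0.26, and 17 were lower under equal totals. Vars, for valine, was counted at 891, 1617, 1613, 1649.9 and 1845 under semaglutide, 885, 733 and 827 with the ketone ester and 808 to 867 under vehicle, without overlap of the first pair of groups (log2 fold change -0.86, SE 0.18, adjusted p = 0.0044). Branched-chain amino acid breakdown was higher in 6 of 19 and lower in 1, with a median of 0.29. Ivd, which acts on leucine, rose (log2 fold change 0.58, SE 0.11, adjusted p = 0.0025), while Bckdhb, a subunit of the rate-limiting dehydrogenase, fell (log2 fold change -0.52, SE 0.12, adjusted p = 0.008). Autophagy and lysosome genes outside the FoxO list were higher in 1 and lower in 3 of 31, or 12.9% called against 20.7% of all genes. Their median was -0.15, and Gabarap was among the genes that fell (log2 fold change -0.52, SE 0.12, adjusted p = 0.01). Without mouse 13, 11 of the 31 were lower and 3 higher, and under equal totals 19 were lower and none higher.

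Genes of denervation and the neuromuscular junction were higher in 5 and lower in 6 of 24, with a median of 0.04 that became -0.20 under equal totals. The acetylcholine receptor subunit Chrnb1 was counted at 1072, 1039, 1018, 919 and 1196 under semaglutide, 652, 616 and 621 with the ketone ester and 447 to 608 under vehicle, with the ketone ester group between the others (log2 fold change -0.73, SE 0.11, adjusted p = 0.00096). Musk, the receptor kinase of the junction, fell (log2 fold change -0.82, SE 0.15, adjusted p = 0.0025), and the developmental myosins Myh3 and Myh8 rose (log2 fold change 0.66, SE 0.14, adjusted p = 0.0054 and log2 fold change 0.78, SE 0.14, adjusted p = 0.0026). Of 17 p53 and growth arrest genes, 3 were lower and 2 higher, with a median of -0.43, against 7 and 3 without mouse 13 and 6 and 2 under equal totals. Cdkn1a, the cell cycle inhibitor p21, was counted at 220.5, 950, 748, 1299 and 841 and 274, 126 and 148, with overlap through mouse 13 (log2 fold change -2.02, SE 0.45, adjusted p = 0.0067), and Ccng1, cyclin G1, rose (log2 fold change 1.04, SE 0.21, adjusted p = 0.0041). Lipid and sterol synthesis had 2 genes higher and 2 lower of 25, or 16% called against 20.7% of all genes, with a median of 0.07 (-0.17 under equal totals). Hmgcs1, of cholesterol synthesis, rose (log2 fold change 0.59, SE 0.11, adjusted p = 0.0022), and Acaca, which makes malonyl-coenzyme A, fell (log2 fold change -0.44, SE 0.14, adjusted p = 0.045). The call of Acaca was lost in most of the fits that left out a single mouse.

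None of 7 lymphocyte or 5 neutrophil markers reached the mean of 10. Cd3e, a subunit of the T cell receptor complex, was counted at 24.3, Cd8a at 35.0 and Cd4 at 25.2 in mouse 16, whereas no other of the 13 mice exceeded 2.48, 1.22 and 2.48.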
